A study of Equus caballus with 23 samples.

Results

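Gluteus medius muscle of Arabian horses was compared between the end of a racing season and the intense gallop phase before the flat racing season, by RNA sequencing. The comparison uses 18 of the 23 libraries in the series: 10 at the end of the season (T2) and 8 from the gallop phase (T1), chosen by the time point in the sample titles. The T1 libraries came from 4 male and 4 female horses and the T2 libraries from 7 male and 3 female horses, all 3 years old. The remaining 5 libraries (T0) came from untrained horses aged 2.5 years, 3 male and 2 female, and they are used here to estimate the spread and as a description. Gluteus medius is a large locomotor muscle of the hindquarters, sampled here with a 2 mm biopsy needle, so each library mixes whatever fibre types the needle took. Whether any horse gave more than 1 biopsy is not stated in the labels, so p-values here reflect only how much the libraries vary.

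Skeletal muscle holds slow fibres, which rely on oxidative metabolism and resist fatigue, and fast fibres, which contract quickly and draw more on glycogen and glycolysis. Each type has its own forms of myosin, troponin, the calcium pump and several enzymes, so the mix of RNA in a biopsy follows both the fibres sampled and what each fibre expresses. Training is known to act on mitochondria, fuel use and the control of protein synthesis and breakdown.

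T2 libraries held 12185608 to 19804694 counts and T1 libraries 15417737 to 23641809, a lower total at T2 (exact two-sided permutation test, adjusted p = 0.0151 over 12 library values). Mitochondrially encoded genes took 53.0% ± 3.99 (SD, n = 8) of the counts in T1 and 48.1% ± 2.87 (n = 10) in T2 (adjusted p = 0.0356, and 0.0599 without T1 library m3). All 10 skeletal muscle fibre markers were tested, and their summed level ran from 70122 to 110203 CPM in T1 and from 45742 to 87623 CPM in T2 (adjusted p = 0.693 for the mean log2 level). Fibroblast markers (8 tested) summed to 76.1 to 178 CPM in T1 and 91.5 to 307 CPM in T2 (adjusted p = 0.159, and 0.223 without m3). Endothelial markers (9 tested) summed to 201 to 310.3 and 183 to 291 CPM (adjusted p = 0.159, and 0.0599 without m3). The only skin marker with a symbol was TYRP1, at 2.47 to 31.7 CPM in T1 and 1.14 to 7.44 CPM in T2 (adjusted p = 0.0151), and the only lymphocyte marker PTPRC, at 1.39 to 9.41 and 0.950 to 3.40 CPM (adjusted p = 0.0930). No marker on the neutrophil and red cell lists carried a symbol, so those cells were not assessed. T1 library m3 stood apart: its mean log2 level of slow minus fast contractile genes was 3.80, against -1.98 to 0.61 in the other 7 T1 libraries and -4.11 to -2.01 in T2. The 0.61 was library m11, and the next T1 library, m1, stood at -0.84. No fit left out both m3 and m11.

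Of 11545 genes tested, 3188 (27.6%) passed an adjusted p of 0.05 by edgeR's quasi-likelihood test with Benjamini-Hochberg adjustment. Of these, 1450 (12.6% of the genes tested) were higher in T2 and 1738 (15.1%) lower. The rises were mostly modest, with a median of 0.49 on the log2 scale and 135 genes over 2-fold. The falls had a median of -0.68 and 397 genes over 2-fold. The median over all genes tested was -0.01. For 91 of the higher genes (0.788% of the genes tested) and 167 of the lower genes (1.45%) every T2 library lay outside the range of the T1 libraries. In each of the 18 fits that left out 1 library, 1037 of the rises and 1217 of the falls were called.

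**Figure D1:**
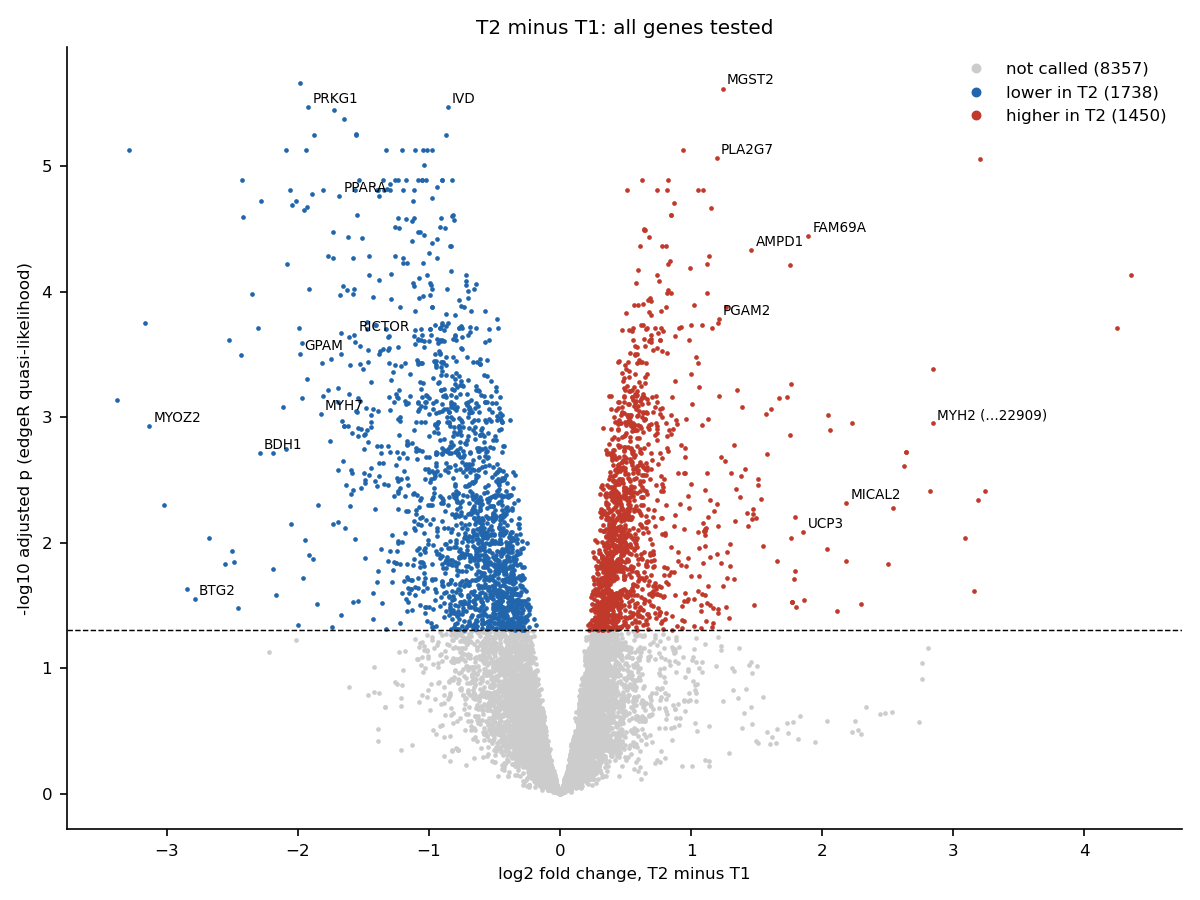
Log2 fold change (T2 minus T1, horizontal) against -log10 of the adjusted p (vertical) for 11545 genes. The 1738 falls lie on the left and the 1450 rises on the right, with PRKG1 and IVD near the top among the falls and MGST2 among the rises.

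Throughout, levels in CPM (read counts scaled to the library's total as adjusted by TMM scaling) are the lowest, the median and the highest library of each group. Fold changes are log2 of T2 over T1 ± standard error (SE), and n is 8 in T1 and 10 in T2. Each gene list is described by the number of its tested members that were called, beside the 12.6% higher and 15.1% lower of all genes tested (14.1% and 15.6% of the 8842 tested genes with a symbol). In these bulk biopsies, fewer fibres of a type and less RNA per fibre cannot be told apart.

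**Figure D2:**
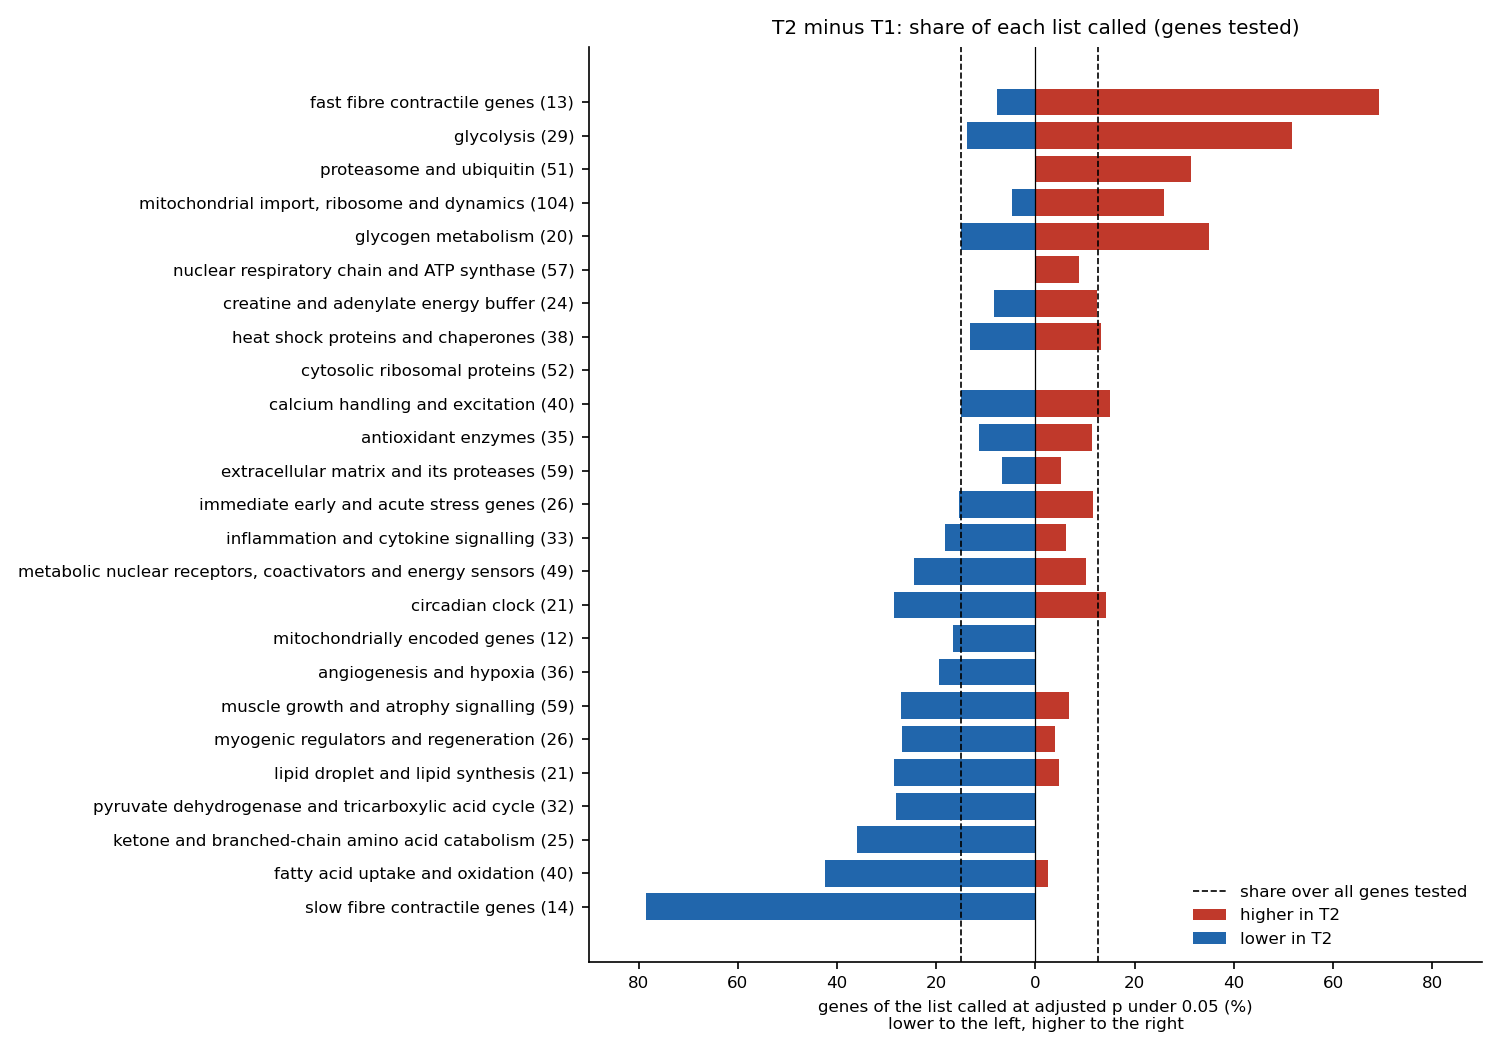
Share of the tested members of each gene list called higher (right) or lower (left) in T2 at an adjusted p under 0.05; dashed lines give the shares over all genes tested, 12.6% and 15.1%. Fast contractile and glycolytic genes lie farthest to the right, and slow contractile and fatty acid genes farthest to the left.

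Slow contractile genes were lower at the end of the season: 11 of 14 tested members fell. The median change over the list was -1.49 on the log2 scale. MYH7, the slow and cardiac myosin heavy chain (chromosome 1, 161506573 to 161527244 in the authors' annotation), had 15834, 25549 and 66049 CPM in T1 and 4035, 5842 and 25919.5 in T2. The T1 range was reached by 1 T2 library, and the other 9 lay below every T1 library (log2 fold change -1.83 ± 0.37, adjusted p = 0.000946). TNNI1, slow troponin I, had 895, 1399 and 4899 CPM in T1 and 284, 364 and 1171 in T2 (-1.77 ± 0.34, adjusted p = 0.000602), with 8 of 10 T2 libraries below every T1 library. MYL2, the slow regulatory light chain, had 3998, 5133 and 21559 CPM in T1 and 1422, 1950.4 and 4217 in T2 (-1.69 ± 0.32, adjusted p = 0.000582). MYL3, the slow essential light chain, fell (log2 fold change -1.61 ± 0.31, adjusted p = 0.000651), and so did MYH7B, a myosin heavy chain of slow muscle (log2 fold change -1.48 ± 0.29, adjusted p = 0.000843). The largest fold among them was that of MYOZ2, a Z-disc protein that binds calcineurin, with 26.9, 62 and 938 CPM in T1 and 12.9, 18.2 and 39.6 in T2 (log2 fold change -3.13 ± 0.63, adjusted p = 0.00117). Its spread within T1 was wide, and 3 T2 libraries lay inside the T1 range. In each of the 18 fits that left out 1 library, 11 members were called lower.

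Fast contractile genes were higher in T2: 9 of 13 tested members rose and 1 fell. Their median change was 1.14 on the log2 scale. MYL1, the fast essential light chain, had 249.6, 2780.5 and 3075 CPM in T1 and 3931, 5619 and 9464 in T2 (log2 fold change 1.38 ± 0.32, adjusted p = 0.00294), with no overlap between the groups. TPM1, a tropomyosin of fast fibres and heart, had 98.5, 1126 and 1469 CPM in T1 and 1616, 2199 and 3695 in T2 (log2 fold change 1.38 ± 0.34, adjusted p = 0.00436). TNNC2, fast troponin C, had 496, 5567 and 6232 CPM in T1 and 7206, 8553 and 16039 in T2 (log2 fold change 1.11 ± 0.31, adjusted p = 0.0107). Both were free of overlap. ACTN3, the Z-disc actinin of fast fibres, rose less evenly (log2 fold change 1.28 ± 0.37, adjusted p = 0.0119), with 6 of 10 T2 libraries above every T1 library. MYOZ3, the Z-disc relative of MYOZ2 found in fast fibres, was the member that fell, by a small amount (log2 fold change -0.33 ± 0.11, adjusted p = 0.0256). That call was lost without T1 library m4, m5 or m7 (adjusted p up to 0.0566). Library m3 held the lowest T1 value of MYL1, TPM1 and TNNC2, and m11 the next lowest. Across the 18 fits that left out 1 library, 7 to 10 members were called higher.

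Both identifiers that the annotation names MYH2 lie side by side on chromosome 11. Reads of close paralogs may have been divided unevenly between them. MYH1, a fast myosin heavy chain, had no tested identifier under that symbol. ENSECAG00000022909 (chromosome 11, 52973970 to 52998897) had 82.2, 2112 and 5509 CPM in T1 and 4675, 13168 and 28773 in T2, and 9 T2 libraries lay above every T1 library (log2 fold change 2.84 ± 0.58, adjusted p = 0.00112). ENSECAG00000024667 (chromosome 11, 53001919 to 53027479) had 293, 22456 and 27987 CPM in T1 and 10933, 17772 and 30139 in T2, with a log2 fold change of -0.00 ± 0.42, adjusted p = 0.998, so its difference was smaller than the spread between libraries. Outside the list, MYBPH, a myosin-binding protein of fast muscle, ranged widely with 1.36, 12.4 and 60 CPM in T1 and 7.41, 56 and 281 in T2 (log2 fold change 2.29 ± 0.77, adjusted p = 0.0307). Its call was lost without T1 library m2, m6, m7 or m11 or T2 library m21 (adjusted p up to 0.0678). MICAL2, an enzyme that oxidises actin, was among the largest rises (log2 fold change 2.18 ± 0.53, adjusted p = 0.00482), with 1.47, 3.32 and 10.8 CPM in T1 and 2.96, 20.3 and 47.8 in T2.

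**Figure D3:**
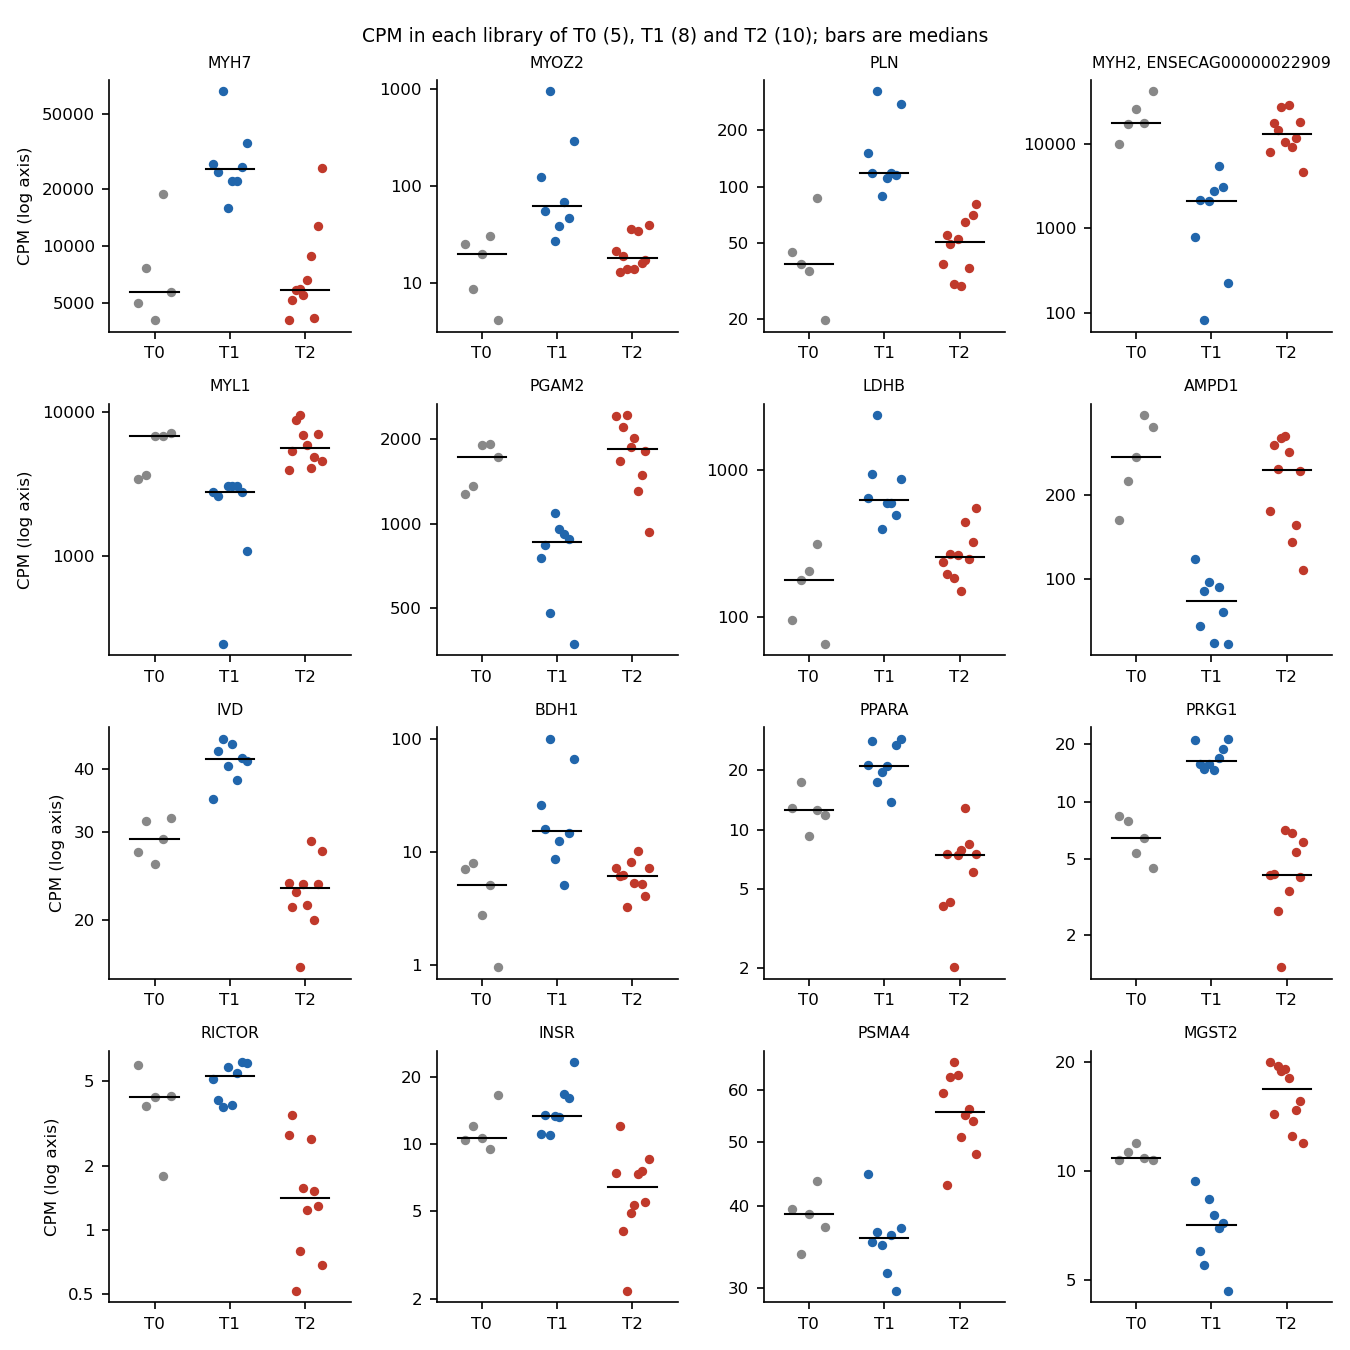
CPM (log axis) of 16 genes in each library of T0, T1 and T2; each point is a library and each bar a group median. T1 and T2 do not overlap for PLN, MYL1, IVD, PPARA, PRKG1, RICTOR and MGST2, and the T1 point far from the rest in MYH7, MYOZ2 and MYL1 is library m3.

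Calcium handling genes were called in both directions, with 6 of 40 tested members higher and 6 lower (15% each), shares near those of all genes. PLN (phospholamban), which inhibits the calcium pump of slow fibres, had 89, 118 and 319 CPM in T1 and 29.9, 51 and 80.8 in T2 (log2 fold change -1.67 ± 0.28, adjusted p = 0.000213), with no overlap between the groups. The slow fibre pump itself, ATP2A2, fell too (log2 fold change -1.46 ± 0.26, adjusted p = 0.000293), and so did S100A1, a calcium sensor protein (log2 fold change -1.64 ± 0.38, adjusted p = 0.00348). CACNA2D1, an auxiliary subunit of the voltage-gated calcium channel, had 40.5, 54.2 and 61.3 CPM in T1 and 17.6, 31.8 and 37.1 in T2 (log2 fold change -0.83 ± 0.13, adjusted p = 6.8e-05) with no overlap. In the other direction, ATP2A1, the fast fibre pump, had 39.1, 2373 and 3104 CPM in T1 and 3111, 4473 and 8184 in T2 (log2 fold change 1.17 ± 0.43, adjusted p = 0.0438). Its groups did not overlap, yet 11 of the 18 fits that left out 1 library lost the call, with an adjusted p of up to 0.0829. CASQ1, the calcium store protein calsequestrin, rose (log2 fold change 0.51 ± 0.15, adjusted p = 0.0114). Both catalytic subunits of calcineurin on the list rose as well, PPP3CB (log2 fold change 0.67 ± 0.13, adjusted p = 0.000773) and PPP3CA (log2 fold change 0.44 ± 0.13, adjusted p = 0.0167). SLN, the small inhibitor sarcolipin, had no tested identifier under that symbol.

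Of the 29 tested glycolytic genes, 15 were higher in T2, 4 lower and 10 not called, and the list's median was 0.62. PGAM2, the muscle phosphoglycerate mutase, had 372, 861 and 1095 CPM in T1 and 933, 1848 and 2444 in T2 (log2 fold change 1.21 ± 0.20, adjusted p = 0.000164), with 9 of 10 T2 libraries above every T1 library. ENO3, the muscle enolase, had 954, 2462 and 3073 CPM in T1 and 3676, 5359.7 and 8145 in T2 (log2 fold change 1.20 ± 0.20, adjusted p = 0.000179). PGK1, which makes ATP from bisphosphoglycerate, had 261, 540.2 and 684 CPM in T1 and 715, 997 and 1534 in T2 (log2 fold change 1.04 ± 0.19, adjusted p = 0.000328). Neither overlapped between the groups, and the same held for TPI1, triose phosphate isomerase (log2 fold change 0.88 ± 0.17, adjusted p = 0.000513). Both forms of lactate dehydrogenase were called, in opposite directions. LDHA, the muscle form, had 179, 881 and 1026 CPM in T1 and 1050.2, 1755 and 2749 in T2 (log2 fold change 1.26 ± 0.28, adjusted p = 0.00221). LDHB, the heart form common in slow fibres, had 398, 618 and 2345 CPM in T1 and 149.8, 253 and 545 in T2 (log2 fold change -1.59 ± 0.33, adjusted p = 0.00133).

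The other 3 glycolytic members that fell are forms more typical of other tissues or transporters. PFKL, the liver form of phosphofructokinase, had 11.6, 12.9 and 41.6 CPM in T1 and 5.29, 8.87 and 10.7 in T2 (log2 fold change -1.09 ± 0.21, adjusted p = 0.000763). PFKFB2, which makes and degrades the phosphofructokinase activator fructose bisphosphate and is best known from heart, had 31.4, 38.4 and 56.2 CPM in T1 and 7.14, 15.1 and 31.2 in T2 (log2 fold change -1.24 ± 0.25, adjusted p = 0.00103). Neither overlapped between the groups. SLC16A1, a lactate transporter of oxidative fibres, fell less (log2 fold change -0.56 ± 0.16, adjusted p = 0.0128), with 7 of 10 T2 libraries below every T1 library. SLC16A7, a related monocarboxylate transporter outside the list, had 8.49, 16 and 38.7 CPM in T1 and 1.76, 4.57 and 7.29 in T2 (log2 fold change -1.93 ± 0.35, adjusted p = 0.000497), again with no overlap.

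Glycogen genes rose in 7 of 20 tested members and fell in 3, with a median of 0.26. PGM1, phosphoglucomutase, had 417, 637 and 903 CPM in T1 and 905, 1251 and 2205 in T2 (log2 fold change 1.06 ± 0.19, adjusted p = 0.000369), with no overlap between the groups. Subunits of phosphorylase kinase, which switches on glycogen breakdown, rose as well: PHKG1 (log2 fold change 0.76 ± 0.15, adjusted p = 0.000858) and PHKB (log2 fold change 0.78 ± 0.19, adjusted p = 0.00342). The falls were in GBE1, the branching enzyme (log2 fold change -0.69 ± 0.14, adjusted p = 0.000833), and PPP1R3C, a subunit that targets a phosphatase to glycogen (log2 fold change -0.76 ± 0.22, adjusted p = 0.0127), with EPM2A as the other.

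The energy buffer list, of creatine and adenine nucleotide enzymes, had 3 of 24 tested members higher (12.5%) and 2 lower (8.33%). These shares were near or under those of all genes. AMPD1, the muscle AMP deaminase, had 59.1, 83.8 and 118 CPM in T1 and 108, 244 and 322 in T2 (log2 fold change 1.46 ± 0.22, adjusted p = 4.64e-05), with 9 of 10 T2 libraries above every T1 library. AK1, the adenylate kinase of the muscle cytosol, had 69, 151 and 215 CPM in T1 and 204, 269 and 496 in T2 (log2 fold change 1.13 ± 0.23, adjusted p = 0.00104). NT5C1A, a cytosolic nucleotidase that turns AMP into adenosine, went the other way with 19.1, 35.6 and 57 CPM in T1 and 7.14, 14.1 and 28.3 in T2 (log2 fold change -1.31 ± 0.22, adjusted p = 0.000229). GATM, which makes the precursor of creatine, rose from a low level, with 1.83, 3.31 and 4.77 CPM in T1 and 4.55, 8.30 and 18.4 in T2 (log2 fold change 1.51 ± 0.35, adjusted p = 0.00309). CKM, the muscle creatine kinase, had 14036, 18528 and 39944 CPM in T1 and 11139.7, 15643 and 21206 in T2, a difference within the spread of the libraries (log2 fold change -0.35 ± 0.22, adjusted p = 0.236).

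Of 40 tested genes of fatty acid uptake and oxidation, 17 were lower in T2, 1 higher and 22 not called, with a list median of -0.26. ACACB, which makes the malonyl-CoA that restrains fatty acid entry into mitochondria, had 39.5, 51.7 and 61.9 CPM in T1 and 18, 26.6 and 35.3 in T2 (log2 fold change -0.94 ± 0.12, adjusted p = 1.45e-05), with no overlap between the groups. It acts against oxidation, unlike most of the list. ETFDH, a flavoprotein that links this pathway to the respiratory chain, fell (log2 fold change -0.53 ± 0.10, adjusted p = 0.000518). SLC27A1, a fatty acid transport protein, fell too (log2 fold change -0.79 ± 0.16, adjusted p = 0.000879). Each of these was called in all 18 fits. The single rise was UCP3, a mitochondrial carrier induced by fatty acids, described below with the libraries it rests on.

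Lipid storage and synthesis genes followed, with 6 of 21 lower and 1 higher. GPAM, the first enzyme of glycerolipid synthesis, had 17.7, 24.3 and 69.9 CPM in T1 and 1.68, 7.65 and 13.1 in T2 (log2 fold change -1.98 ± 0.34, adjusted p = 0.000313). DGAT2, which completes triglyceride synthesis, had 7.33, 12.1 and 18.7 CPM in T1 and 2.89, 5.33 and 10.5 in T2 (log2 fold change -1.10 ± 0.24, adjusted p = 0.00175). Its namesake DGAT1 went the other way and was the 1 member of the list called higher. GPAM did not overlap between the groups. ACOT11, an acyl-CoA thioesterase, had 15.9, 17.9 and 26.2 CPM in T1 and 0.962, 4.60 and 7.63 in T2 (log2 fold change -2.05 ± 0.27, adjusted p = 2.04e-05), with no overlap between the groups. ACSS1, the mitochondrial enzyme that activates acetate, had 18.1, 34.6 and 107 CPM in T1 and 7.11, 10.8 and 18.3 in T2 (log2 fold change -1.91 ± 0.29, adjusted p = 9.42e-05).

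Of 25 tested genes of ketone and branched-chain amino acid catabolism, 9 were lower in T2 and 16 not called, with a list median of -0.23. IVD, an enzyme of leucine breakdown (chromosome 1, 148103556 to 148113887), had 34.9, 41.9 and 46.1 CPM in T1 and 16.1, 23.2 and 28.8 in T2 (log2 fold change -0.86 ± 0.09, adjusted p = 3.39e-06), with no overlap between the groups. AASS, which starts lysine breakdown and is not on the list, had 19.4, 29.9 and 48.1 CPM in T1 and 4.41, 10.5 and 14.8 in T2 (log2 fold change -1.65 ± 0.18, adjusted p = 4.18e-06), also with no overlap. ALDH6A1, of valine breakdown, had 32.9, 44.9 and 67.9 CPM in T1 and 17.8, 22.3 and 40.6 in T2 (log2 fold change -0.90 ± 0.15, adjusted p = 0.000179), and MCCC2, another leucine enzyme, fell by less (log2 fold change -0.62 ± 0.14, adjusted p = 0.00175). The ketone body enzymes fell too: OXCT1, which activates acetoacetate, had 41.7, 53.2 and 112 CPM in T1 and 22.9, 33.9 and 52.5 in T2 (log2 fold change -0.96 ± 0.20, adjusted p = 0.00131). BDH1, which interconverts the ketone bodies, had 5.13, 15.4 and 100 CPM in T1 and 3.29, 6.19 and 10.3 in T2 (log2 fold change -2.29 ± 0.49, adjusted p = 0.00194), and only 2 T2 libraries lay below every T1 library.

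Of 32 tested genes of pyruvate dehydrogenase and the tricarboxylic acid cycle, 9 fell and none rose by edgeR (2 had a positive change at an unadjusted p under 0.05, and DESeq2 called 0 higher). Pyruvate dehydrogenase kinases, which switch that complex off, were among the falls: PDK3 had 18.2, 20.9 and 27.3 CPM in T1 and 7.41, 11 and 17 in T2 (log2 fold change -0.87 ± 0.15, adjusted p = 0.000187) with no overlap, and PDK2 fell by less (log2 fold change -0.41 ± 0.11, adjusted p = 0.00587). PDK4, the kinase induced by fasting and exercise, varied over a wide range, with 1.14, 10.8 and 228 CPM in T1 and 3.32, 59.9 and 812 in T2, and did not pass the test (log2 fold change 1.57 ± 1.15, adjusted p = 0.324). OGDH, of the oxoglutarate dehydrogenase complex, fell (log2 fold change -0.55 ± 0.13, adjusted p = 0.00239), and so did CS, citrate synthase (log2 fold change -0.39 ± 0.11, adjusted p = 0.0101), and ME3, a mitochondrial malic enzyme (log2 fold change -0.85 ± 0.18, adjusted p = 0.00112).

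Of 57 nuclear genes for the respiratory chain and ATP synthase 5 rose (8.77%), among them NDUFV2 of complex I (log2 fold change 0.39 ± 0.12, adjusted p = 0.0167). NDUFS4, of the same complex, rose too (log2 fold change 0.37 ± 0.13, adjusted p = 0.0311), a call lost in 9 of the 18 fits that left out 1 library (adjusted p up to 0.0636). That count ranged from 1 to 19 over the fits that left out 1 library, with 19 in the fit without T1 library m3. Of 12 mitochondrially encoded genes 2 fell, both of them complex I subunits: ND5, with 23516, 32681 and 34061 CPM in T1 and 17282, 20314 and 27412 in T2 (log2 fold change -0.53 ± 0.16, adjusted p = 0.0192), and ND4L (log2 fold change -0.53 ± 0.17, adjusted p = 0.0259). The count fell to 0 without T2 libraries m14 and m21. All 12 mitochondrially encoded genes had a negative change, beside the lower mitochondrial share of counts given above.

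On the mitochondrial import, ribosome and dynamics list, 27 of 104 tested members were higher, 5 lower and 72 not called. Most of the rises were ribosomal subunits, such as MRPL40 (log2 fold change 0.53 ± 0.11, adjusted p = 0.00107). MRPS25 (log2 fold change 0.50 ± 0.11, adjusted p = 0.00211) and MRPS10 (log2 fold change 0.57 ± 0.14, adjusted p = 0.00361) rose as well. SSBP1, which coats single-stranded mitochondrial DNA, had 5.62, 8.27 and 10.4 CPM in T1 and 9.44, 14.4 and 17.8 in T2 (log2 fold change 0.81 ± 0.13, adjusted p = 0.000133). MFN2, a fusion protein of the outer membrane, went down with 135, 155 and 162 CPM in T1 and 79.6, 91.8 and 139 in T2 (log2 fold change -0.63 ± 0.12, adjusted p = 0.00036), and TFAM, which packages and transcribes mitochondrial DNA, fell slightly (log2 fold change -0.33 ± 0.11, adjusted p = 0.0301), a call lost without T1 library m1, m2 or m4 or T2 library m17 (adjusted p up to 0.0774). Without T1 library m3 the number of rises on the list was 46 rather than 27.

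Proteasome and ubiquitin genes rose in 16 of 51 tested members and none fell by edgeR (0 of 51 fell at an unadjusted p under 0.05, and DESeq2 called 0 lower). The list's median was 0.26 and 35 members were not called. PSMA4, a subunit of the proteasome core (chromosome 1, 116148488 to 116155500), had 29.7, 35.7 and 44.7 CPM in T1 and 43.1, 55.6 and 66.1 in T2 (log2 fold change 0.64 ± 0.09, adjusted p = 3.24e-05), with 9 of 10 T2 libraries above every T1 library. Core subunits PSMA3 (log2 fold change 0.58 ± 0.12, adjusted p = 0.000981) and PSMA6 (log2 fold change 0.51 ± 0.12, adjusted p = 0.00227) followed. UBE2D2, a ubiquitin-conjugating enzyme, had 16, 18.2 and 20.8 CPM in T1 and 22.6, 25.1 and 34.6 in T2 (log2 fold change 0.49 ± 0.09, adjusted p = 0.00038), with no overlap between the groups. The number of rises was 34 without T1 library m3 and 25 without T2 library m15. The count for cytosolic ribosomal proteins also depended on m3: none of 52 was called by edgeR in either direction (7 were higher at an unadjusted p under 0.05 and DESeq2 called 1), but 32 were called higher without that library.

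Metabolic nuclear receptors and their partners were lower in 12 of 49 tested members and higher in 5. PPARA, the receptor that drives fatty acid oxidation genes (chromosome 28, 42093244 to 42113011), had 13.8, 21.1 and 28.9 CPM in T1 and 2.00, 7.45 and 12.9 in T2 (log2 fold change -1.69 ± 0.22, adjusted p = 1.72e-05), with no overlap between the groups. ESRRB, an oestrogen-related receptor, was low throughout with 1.72, 2.07 and 3.22 CPM in T1 and 0.481, 0.627 and 1.25 in T2 (log2 fold change -1.56 ± 0.21, adjusted p = 1.54e-05), also without overlap. THRB, a thyroid hormone receptor, fell (log2 fold change -0.79 ± 0.16, adjusted p = 0.000688). NCOR1, a corepressor of these receptors, fell (log2 fold change -0.54 ± 0.09, adjusted p = 0.000242). RXRG, their dimer partner in muscle, rose with 8.84, 15.8 and 20.2 CPM in T1 and 15.4, 26.2 and 46.3 in T2 (log2 fold change 0.86 ± 0.18, adjusted p = 0.00124). PRKAG3, the AMP-activated kinase subunit of glycolytic muscle, rose with 17.8, 31.7 and 65.8 CPM in T1 and 29.1, 56.5 and 80.6 in T2 (log2 fold change 0.74 ± 0.24, adjusted p = 0.0258), a call lost without T1 library m1 or m2 (adjusted p up to 0.0509).

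The growth signalling list had 16 of 59 tested members lower and 4 higher. RICTOR, the defining subunit of mTOR complex 2 (chromosome 21, 26718389 to 26793239), had 3.77, 5.32 and 6.14 CPM in T1 and 0.518, 1.41 and 3.46 in T2 (log2 fold change -1.57 ± 0.27, adjusted p = 0.000222), with no overlap between the groups. The receptors upstream fell with it: INSR, the insulin receptor, had 11, 13.5 and 23.4 CPM in T1 and 2.17, 6.37 and 12 in T2 (log2 fold change -1.18 ± 0.22, adjusted p = 0.000367). IGF1R, the IGF-1 receptor, had 3.11, 3.72 and 5.81 CPM in T1 and 1.58, 2.20 and 3.36 in T2 (log2 fold change -0.91 ± 0.17, adjusted p = 0.0004). RHEB, the small GTPase that switches on mTOR complex 1, rose, with 32.8, 35.9 and 49 CPM in T1 and 45.6, 52.8 and 86.4 in T2 (log2 fold change 0.61 ± 0.12, adjusted p = 0.000737). Other members of the mTOR pathway on the list, MTOR itself, RPTOR and AKT2, were called lower. So was TSC1, which restrains mTOR complex 1. Among mediators of TGF-beta and myostatin signals, SMAD2 was higher (0.58 ± 0.12, adjusted p = 0.00126) and SMAD3 lower (-0.86 ± 0.18, adjusted p = 0.00109). SMAD4, TGFBR1 and TGFB2 were also called lower, and so was SMAD7, an inhibitor of these signals. Genes tied to muscle breakdown went both ways. Calls on the lower side included the F-box proteins of ubiquitin ligases FBXO40 (log2 fold change -0.59 ± 0.13, adjusted p = 0.00122) and FBXO30 (log2 fold change -0.69 ± 0.16, adjusted p = 0.00271), and FOXO4, a FoxO transcription factor (log2 fold change -0.48 ± 0.14, adjusted p = 0.0147). MAP1LC3A, an autophagy protein, rose (log2 fold change 0.72 ± 0.24, adjusted p = 0.0256), and so did TRIM63, the ubiquitin ligase MuRF1 (log2 fold change 0.95 ± 0.34, adjusted p = 0.0422). The TRIM63 call was lost in 10 of the 18 fits that left out 1 library (adjusted p up to 0.0931). That of MAP1LC3A ended when m16 or m17 of T2, or m2, m4 or m6 of T1, was left out (adjusted p up to 0.0559). MSTN (myostatin) had no tested identifier under that symbol.

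Genes of the nerve-muscle junction and of muscle formation were lower in 7 of 26 tested members and higher in 1. CHRNA1, a subunit of the muscle acetylcholine receptor, had 16.1, 19.5 and 55.5 CPM in T1 and 5.77, 8.25 and 14.1 in T2 (log2 fold change -1.47 ± 0.26, adjusted p = 0.000363), with no overlap between the groups. LRP4, the receptor for the nerve signal agrin, had 6.48, 17.6 and 25.5 CPM in T1 and 5.17, 7.79 and 11.1 in T2 (log2 fold change -1.09 ± 0.20, adjusted p = 0.000349), and UTRN, the junctional relative of dystrophin, fell (log2 fold change -0.96 ± 0.18, adjusted p = 0.000358). MYOG, the differentiation factor myogenin, fell with 5.61, 9.28 and 16 CPM in T1 and 2.65, 5.79 and 9.19 in T2 (log2 fold change -0.84 ± 0.24, adjusted p = 0.0111). The rise was VIM, a filament protein of non-muscle and regenerating cells (log2 fold change 0.71 ± 0.20, adjusted p = 0.0123). Fibroblast marker sums reached 307 CPM in T2 and 178 CPM in T1, and their part in the VIM result was not tested.

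Vessel genes gave 7 falls in 36 tested members (19.4%, beside 15.1% of all genes). PDGFB, the signal that recruits pericytes, had 4.59, 5.77 and 7.25 CPM in T1 and 1.12, 2.98 and 4.55 in T2 (log2 fold change -0.91 ± 0.18, adjusted p = 0.000601), with no overlap between the groups. NOTCH1, a receptor of vessel patterning, fell (log2 fold change -1.12 ± 0.27, adjusted p = 0.00407). Its ligand DLL4 fell as well (log2 fold change -0.67 ± 0.17, adjusted p = 0.0054), and so did ARNT, the partner of the hypoxia factors (log2 fold change -0.47 ± 0.11, adjusted p = 0.00348). VEGFA, the main vessel growth factor, had 22.7, 39.8 and 61.8 CPM in T1 and 16.6, 37.9 and 83.8 in T2 and did not pass the test (log2 fold change 0.02 ± 0.23, adjusted p = 0.956). The 9 endothelial markers had a median change of -0.21, beside -0.30 for this list, and their part in these falls was not tested. Without T1 library m3 the list had 12 falls.

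Of 59 tested extracellular matrix genes 3 were higher (5.08%) and 4 lower (6.78%), shares under those of all genes. The other 52 were not called, and the list's median was 0.15. TIMP2, a protease inhibitor, had 7.27, 8.84 and 9.99 CPM in T1 and 8.38, 13.3 and 16.6 in T2 (log2 fold change 0.55 ± 0.11, adjusted p = 0.000687). PLOD2, a collagen cross-linking enzyme, had 5.52, 14.1 and 18.7 CPM in T1 and 16, 25.1 and 36.5 in T2 (log2 fold change 0.96 ± 0.20, adjusted p = 0.00103). The 4 falls included HSPG2, the basement membrane proteoglycan perlecan (log2 fold change -0.86 ± 0.24, adjusted p = 0.0109). The laminin chains LAMC1 (log2 fold change -0.47 ± 0.13, adjusted p = 0.00744) and LAMA2 (log2 fold change -0.36 ± 0.11, adjusted p = 0.018) fell by less. COL1A1, a chain of type I collagen, had 5.08, 7.85 and 13.7 CPM in T1 and 3.78, 9.36 and 40.5 in T2 and did not pass (log2 fold change 0.63 ± 0.40, adjusted p = 0.255). LMOD1, a smooth muscle protein, rose (log2 fold change 1.51 ± 0.35, adjusted p = 0.00346), and it is the 1 member called higher of 10 smooth muscle and pericyte markers, of which 2 were lower.

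Antioxidant genes were called in both directions, 4 of 35 higher and 4 lower (11.4% each), as were heat shock genes, 5 and 5 of 38 (13.2% each), shares near those of all genes. GSTM3, a glutathione transferase, had 47.2, 82.4 and 101 CPM in T1 and 86.8, 140.4 and 220.1 in T2 (log2 fold change 0.92 ± 0.16, adjusted p = 0.000191). PRDX4, a peroxiredoxin of the endoplasmic reticulum, had 7.20, 10.8 and 13.4 CPM in T1 and 13.3, 16.6 and 18.1 in T2 (log2 fold change 0.63 ± 0.12, adjusted p = 0.000655). GPX3, a secreted glutathione peroxidase, rose at a low level (log2 fold change 0.90 ± 0.21, adjusted p = 0.0028), and TXNRD1, thioredoxin reductase, fell (log2 fold change -0.43 ± 0.10, adjusted p = 0.00304). Among the chaperones, HSPB7, a small heat shock protein of heart and muscle, had 64.6, 83.3 and 119 CPM in T1 and 16.4, 32.8 and 105 in T2 (log2 fold change -1.08 ± 0.33, adjusted p = 0.019). HSF2, a heat shock transcription factor, fell (log2 fold change -0.51 ± 0.15, adjusted p = 0.0129), and PDIA3, which forms disulphide bonds, rose (log2 fold change 0.33 ± 0.10, adjusted p = 0.0167).

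Cytokine signalling genes were lower in 6 of 33 tested members (18.2%, beside 15.1% of all genes) and higher in 2 (6.06%, beside 12.6%). The share lower was thus near that of all genes. LIFR, the leukaemia inhibitory factor receptor, had 6.92, 12.9 and 23.2 CPM in T1 and 1.12, 4.20 and 8.36 in T2 (log2 fold change -1.67 ± 0.29, adjusted p = 0.000313), with 8 of 10 T2 libraries below every T1 library. Its partner IL6ST fell (log2 fold change -0.56 ± 0.13, adjusted p = 0.0021). JAK1, the kinase they share, had 87.8, 99.4 and 104 CPM in T1 and 55.2, 64.6 and 88.3 in T2 (log2 fold change -0.52 ± 0.11, adjusted p = 0.000913). IL15, a cytokine made in muscle, rose (log2 fold change 0.69 ± 0.16, adjusted p = 0.00309).

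Several of the genes with the smallest p-values were on none of these lists. MGST2, a microsomal glutathione transferase (chromosome 2, 91678246 to 91706560), had 4.67, 7.10 and 9.40 CPM in T1 and 12, 16.9 and 20 in T2 (log2 fold change 1.24 ± 0.13, adjusted p = 2.4e-06). PLA2G7, which inactivates platelet-activating factor, had 4.32, 5.83 and 7.53 CPM in T1 and 9.32, 12.9 and 18.1 in T2 (log2 fold change 1.19 ± 0.15, adjusted p = 8.59e-06). Neither overlapped between the groups. The same held for TIAL1, an RNA-binding protein whose rise was small and even (log2 fold change 0.51 ± 0.07, adjusted p = 1.54e-05), and RPS27L, a ribosomal protein relative (log2 fold change 1.05 ± 0.14, adjusted p = 1.54e-05). FAM69A, a protein of the endoplasmic reticulum, rose the most of these (log2 fold change 1.89 ± 0.27, adjusted p = 3.61e-05).

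Among the falls, PRKG1, the kinase activated by cyclic GMP (chromosome 1, 42400353 to 42839102), had 14.7, 16.3 and 21.3 CPM in T1 and 1.36, 4.16 and 7.10 in T2 (log2 fold change -1.92 ± 0.20, adjusted p = 3.39e-06). DKK2, a modulator of Wnt signals, had 2.29, 5.72 and 8.15 CPM in T1 and 1.08, 1.77 and 2.19 in T2 (log2 fold change -1.72 ± 0.19, adjusted p = 3.57e-06). XPO4, a nuclear exporter, had 20.9, 33.2 and 75.8 CPM in T1 and 3.45, 10.9 and 13.5 in T2 (log2 fold change -2.01 ± 0.27, adjusted p = 1.89e-05). AKAP6, a scaffold that anchors protein kinase A near the nucleus, had 53.1, 62.2 and 79 CPM in T1 and 21.1, 34.2 and 41 in T2 (log2 fold change -0.98 ± 0.12, adjusted p = 7.39e-06). All 4 were free of overlap. ZFHX4, a zinc finger homeobox gene (log2 fold change -1.56 ± 0.18, adjusted p = 5.57e-06), and VWA8, a mitochondrial protein (log2 fold change -0.87 ± 0.10, adjusted p = 5.57e-06), were too.

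Clock genes were called in both directions, 3 of 21 higher and 6 lower. TEF, a clock output factor, had 10.6, 12.1 and 18.8 CPM in T1 and 6.13, 8.14 and 10.5 in T2 (log2 fold change -0.65 ± 0.14, adjusted p = 0.00134), with no overlap between the groups. CRY2, a repressor of the clock, fell (log2 fold change -0.66 ± 0.18, adjusted p = 0.00872), and so did CSNK1E, the kinase that acts on PER proteins (log2 fold change -0.38 ± 0.08, adjusted p = 0.00106). CIART, a clock repressor, rose with 6.07, 10.7 and 13.6 CPM in T1 and 11.6, 19.9 and 92.2 in T2 (log2 fold change 1.53 ± 0.37, adjusted p = 0.00445), and BHLHE40, another repressor, with 11.7, 17.8 and 33.1 CPM in T1 and 18.3, 34 and 113 in T2 (log2 fold change 1.20 ± 0.30, adjusted p = 0.00489). NR1D1, the receptor REV-ERB alpha, rose less (log2 fold change 0.68 ± 0.24, adjusted p = 0.0392), and 10 of the 18 fits that left out 1 library lost that call (adjusted p up to 0.0843). PER1, which light and exercise can induce, did not pass (log2 fold change 0.50 ± 0.31, adjusted p = 0.238). The labels give no time of day for the biopsies.

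T2 libraries m14 and m21 held the highest values of several genes that rose. UCP3 had 8.23, 15 and 28.9 CPM in T1 and 13.1, 36.9 and 197 in T2 (log2 fold change 1.86 ± 0.49, adjusted p = 0.00826): m14 and m21 stood at 164 and 197 CPM and the other 8 T2 libraries between 13.1 and 38.7. The same libraries held the highest T2 values of CIART (92.2 and 69.8 CPM), PER1 (115 and 132 CPM), TRIM63 (226 and 252 CPM) and GADD45A, a stress gene (2.08, 3.92 and 6.12 CPM in T1 and 2.12, 7.53 and 34.8 in T2). PPARGC1A, the coactivator that drives mitochondrial genes, was at 74.1 and 72.5 CPM in them, within overall ranges of 13.4, 24.4 and 28.4 CPM in T1 and 6.13, 16 and 74.1 in T2. With both left out, UCP3 (0.86, adjusted p = 0.027) and CIART (0.79, adjusted p = 0.00471) were still called. The call was lost for GADD45A (0.47, adjusted p = 0.265), TRIM63 (0.35, adjusted p = 0.265) and NR1D1 (0.47, adjusted p = 0.134). PPARGC1A went from 0.18 (adjusted p = 0.781) to -0.72 (adjusted p = 0.0213).

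**Figure D4:**
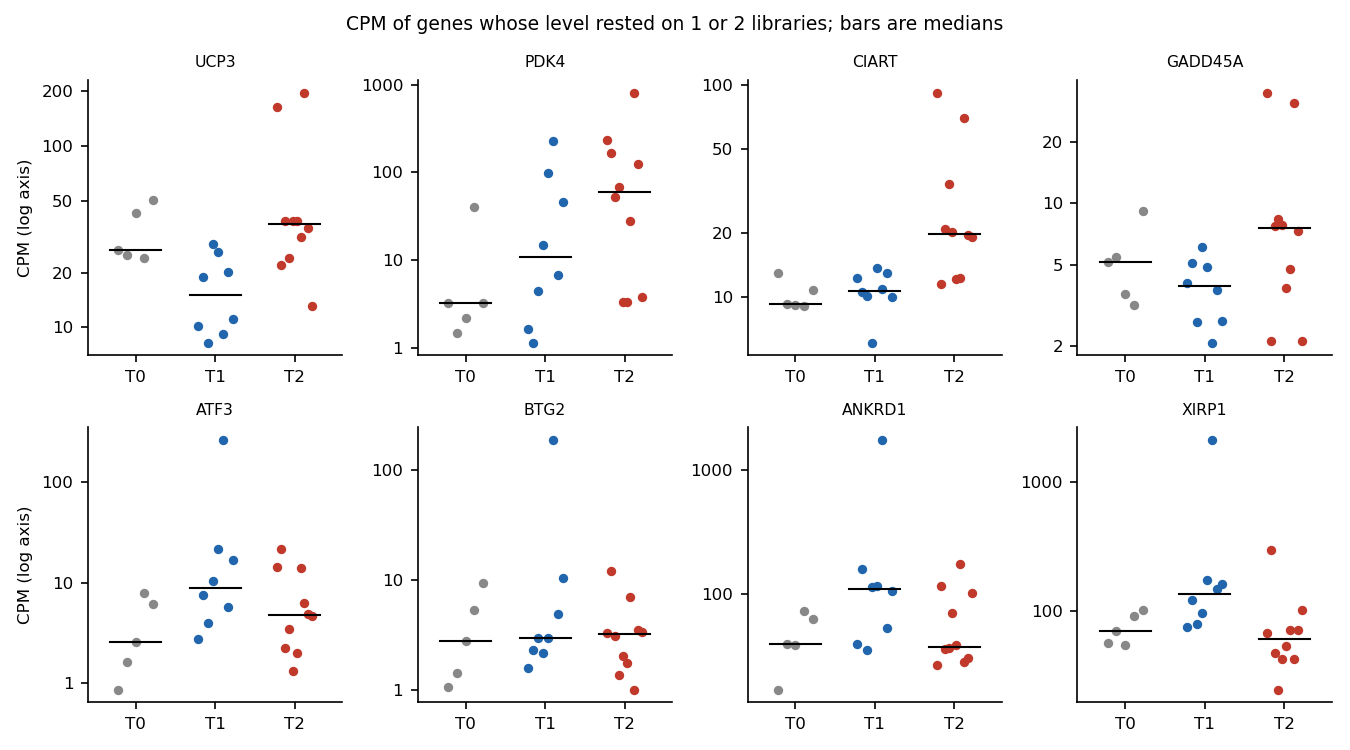
CPM (log axis) of 8 genes in each library of T0, T1 and T2; points are libraries and bars group medians. The T2 points at 164 and 197 for UCP3 are m14 and m21, and the T1 point at 261 for ATF3 and 2110.0 for XIRP1 is m6.

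T1 library m6 held the highest T1 values of a further set of falls. ATF3, a transcription factor of acute stress, reached 261 CPM there against 21.3 in the next T1 library, and BTG2, a gene that halts cell division, 187 against 10.3. ANKRD1, which muscle makes when stretched, reached 1761 CPM against 160 in the next T1 library, and XIRP1, an actin-binding protein found at sites of muscle damage, 2110.0 against 174. The calls for ATF3 (-2.46 ± 0.84, adjusted p = 0.0334), BTG2 (-2.79 ± 0.91, adjusted p = 0.0281), ANKRD1 (-2.17 ± 0.70, adjusted p = 0.0263) and XIRP1 (-2.19 ± 0.65, adjusted p = 0.0163) all ended without m6, and also with DESeq2 or with sex as a covariate. DUSP1, a phosphatase of the same response (-1.22 ± 0.44, adjusted p = 0.0439), reached 123 CPM in m6. Of the 18 fits that left out 1 library, 7 lost the ATF3 call and 10 the DUSP1 call. The number of falls among the 26 tested immediate early genes went from 4 to 0 without m6, and was 2 to 7 without any other single library. It was also 0 with sex as a covariate or without both m14 and m21, and 1 with DESeq2. Both DDIT4 and NFKBIA of the same list kept their calls in all 18 fits that left out 1 library. DDIT4, an inhibitor of mTOR complex 1, had 1.96, 4.32 and 7.16 CPM in T1 and 3.63, 9.96 and 24.7 in T2 (log2 fold change 1.34 ± 0.32, adjusted p = 0.00373). NFKBIA, the inhibitor of NF-kappa B, had 10.1, 12.6 and 15.7 CPM in T1 and 14.7, 20.6 and 28.5 in T2 (log2 fold change 0.65 ± 0.12, adjusted p = 0.000369).

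The share of genes called in each direction differed with genomic span, the distance from a gene's annotated start to its end. Of 1132 genes that span up to 3 kb, 16.3% were higher in T2 and 6.98% lower, and of 2145 genes of 3 to 10 kb 17.8% and 7.83%. For 2801 genes of 10 to 30 kb the shares were 16.1% and 11.7%, for 2525 genes of 30 to 100 kb 10.7% and 22.6%, and for 901 genes of 100 to 300 kb 7.77% and 30.2%. Of 124 genes over 300 kb, 2.42% were higher and 37.1% lower. The mean log2 level of 1025 genes over 100 kb minus that of 3277 genes under 10 kb lay between -0.56 and -0.08 in T2. In T1 it was -0.43 in library m3 and -0.00 to 0.16 in the other 7 (difference -0.29, exact two-sided permutation p = 0.00400, and -0.35 with p = 0.000206 without m3). PRKG1, AKAP6 and LAMA2 span 438750, 447977 and 540225 bp.

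**Figure D5:**
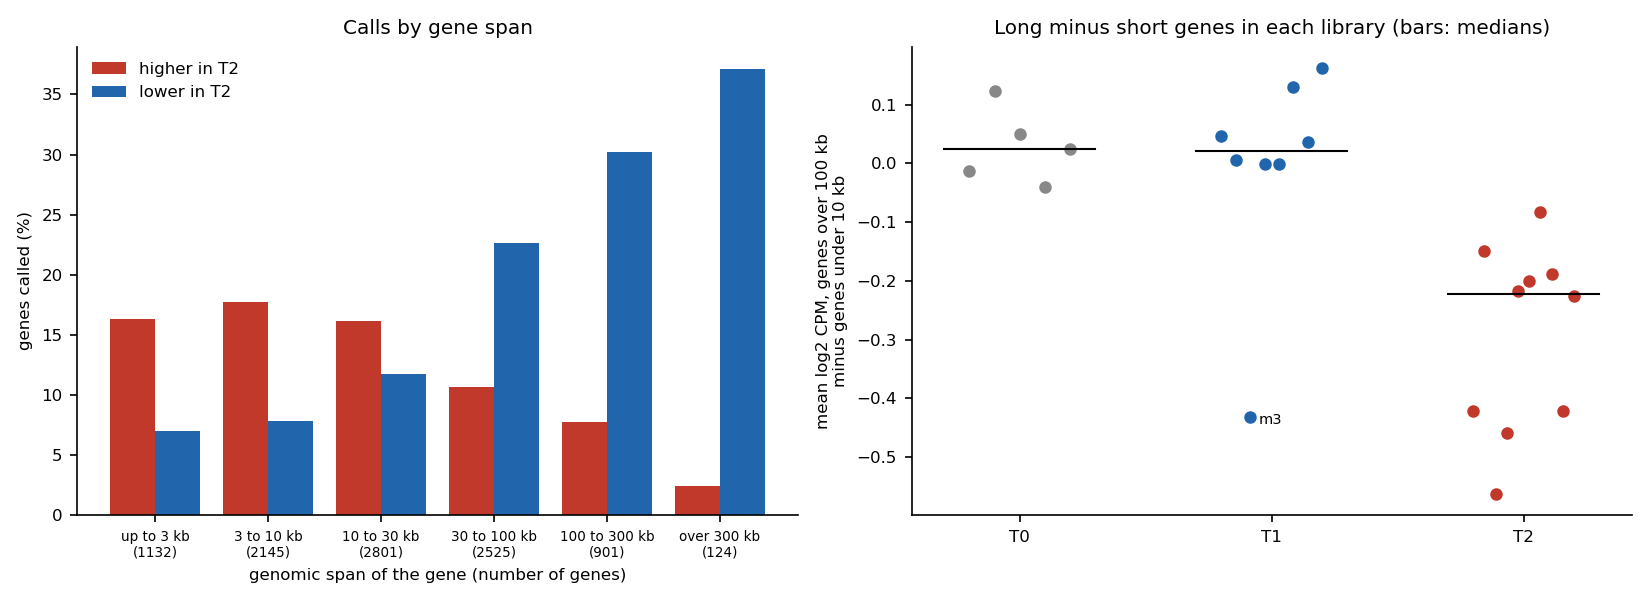
Left, percent of genes called higher and lower in T2 in 6 classes of genomic span; right, mean log2 CPM of genes over 100 kb minus that of genes under 10 kb in each library, with group medians as bars. Falls go from 6.98% in the shortest class to 37.1% in the longest, and T1 library m3 lies among the T2 values.

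The trend on span was then removed in each library, over the 9628 tested genes with coordinates rather than all 11545. In that fit 1403 genes were higher and 1413 lower, and 1145 of the rises and 1215 of the falls above were called again. Calls on genes without coordinates could not recur there. The lists then gave 11 slow contractile falls, 8 fast contractile rises, 14 glycolytic rises, 17 fatty acid falls and 16 proteasome rises. Other counts moved by over 1.5 times. Heat shock genes had 1 rise rather than 5, with 7 falls, and the respiratory chain 3 rises rather than 5. The falls were 10 rather than 5 on the import, ribosome and dynamics list, 7 rather than 4 among antioxidant genes, and 5 rather than 2 among mitochondrially encoded genes. The energy buffer list had 5 rises rather than 3, and fatty acid genes 2 rises rather than 1. The long gene PRKG1 was still lower (-1.65, adjusted p = 5.29e-06), as were AKAP6 (-0.70, adjusted p = 3.81e-05) and RICTOR (-1.44, adjusted p = 0.000293). LAMA2 was not (-0.05, adjusted p = 0.727), while the fold changes of NR1D1 (0.58, adjusted p = 0.0632) and TRIM63 (0.89, adjusted p = 0.0556) moved little though their calls were lost. RNA integrity was above 8.5 in the samples used, per the labels, with no value per library, and the part of RNA quality in the span trend was not tested.

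The change from T1 to T2 was compared between the sexes with the 18 libraries. No gene of 10854 (0%) had an interaction of time point and sex by edgeR at an adjusted p of 0.05, and 172 did at an unadjusted p under 0.05. In the sexes apart, 881 genes (8.12%) were called in females and 666 (6.14%) in males, from 3 and 7 T2 libraries. MYH7 fell by 2.28 ± 0.57 in females and 1.83 ± 0.42 in males on the log2 scale, and AMPD1 rose by 1.69 ± 0.34 and 1.33 ± 0.29. PRKG1 fell by 2.20 ± 0.36 and 1.80 ± 0.27.

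Values of the untrained T0 libraries are a description only, since those horses were younger and fewer. For several genes of contraction and fuel use T0 lay near T2: MYH7 had 4039 to 18933 CPM, the MYH2 identifier ENSECAG00000022909 10011 to 41411 CPM, and AMPD1 163 to 384 CPM. For others it lay nearer T1, with RICTOR at 1.80 to 5.94 CPM and PSMA4 at 33.7 to 43.7 CPM. MGST2 at 10.7 to 12 CPM and IVD at 25.9 to 32.1 CPM lay between the T1 and T2 medians.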

How the data were processed

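RNA from 23 gluteus medius biopsies of Arabian horses was sequenced as single-end reads in 50 cycles and 6 technical repetitions, per the labels, which do not say how these were merged. FastQC, STAR, RSEM and DESeq2 appear in the submitters' processing notes, without versions. Sources used here name no genome build. The gene table as deposited by the authors holds RSEM expected counts of 26991 genes, all of them whole numbers. Of these, 6643 had no count in any library. Gene symbols and coordinates came from the annotation columns of the authors' comparison tables, which cover 9628 of the genes tested here, 8842 with a symbol. The authors' own comparison statistics were not used, because they name the groups by letters that the labels do not tie to time points. The transcript tables were not used here.

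The filter (filterByExpr, minimum count 10, minimum total 15) left 11545 genes with 99.9% of the counts. Counts were scaled by TMM and 1 model with a term per time point was fitted to all 23 libraries (edgeR 4.0.16 under R 4.3.3, quasi-likelihood F test, robust). Adjustment followed Benjamini-Hochberg over all genes tested, and genes under an adjusted p of 0.05 were called. Standard errors are the size of the log2 fold change over the square root of F. CPM used TMM-scaled library sizes, and log2 CPM a prior count of 2. Total counts ran from 12185608 to 23641809 per library, and counting error adds to the spread between libraries, most for genes of a few CPM. The sexes were compared by an interaction term in the 18 T1 and T2 libraries. For 12 library values an exact two-sided permutation test was run, with adjustment over the 12. Scripts were tested on simulated data.

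Members and lists were chosen with earlier results of these data known. The text names called genes with a symbol that are among the 12 largest rises or falls (mean log2 CPM of at least 2), the 10 smallest p in each direction or up to 4 members per direction of each pathway list, and a panel of muscle genes. It does not name every gene that this rule admits. TYRP1, PTPRC, FBXO40, FBXO30 and FOXO4 fall outside it and were named after their values were seen. The same holds for MTOR, RPTOR, AKT2, TSC1, SMAD4, SMAD7, TGFBR1, TGFB2, PDP2, PDPR and PDK1. The alternatives were median ratio size factors, mitochondrially encoded genes left out, no filter, DESeq2 1.42.0, the T1 and T2 libraries alone, sex as a covariate, counts thinned to the smallest total, and each library left out in turn. Added after seeing the data were the removal of a trend on gene span, the score of long minus short genes, and a fit without T2 libraries m14 and m21.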

Additional observations from a re-analysis of the deposited data

Results flagged for a closer look

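A value was singled out where the highest or lowest library of a group lay far from the next by Dixon's test, on the log2 scale for genes. Of 306 groups of values, 32 were singled out, and chance flags about 1 in 20 groups. Neighbouring genes in 1 library are not independent, so most of these values repeat the same few libraries.

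T1 library m3 held 17 of them. Slow contractile genes were high in it: MYL2 21559 CPM, MYL3 6381 CPM and TNNI1 4899 CPM. Fast fibre genes were low in it, with MYL1 at 249.6 CPM, TPM1 at 98.5 CPM, TNNC2 at 496 CPM, ATP2A1 at 39.1 CPM and the MYH2 identifier ENSECAG00000024667 at 293 CPM. It also held the highest T1 values of CKM (39944 CPM), PDK2 (143 CPM), ME3 (41.9 CPM), PSMA6 (93.9 CPM) and CHRNA1 (55.5 CPM), and the lowest of PLOD2 (5.52 CPM) and FAM69A (0.876 CPM). Its slow minus fast level was 3.80 and its long minus short gene score -0.43.

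T1 library m6 held the highest T1 values of ATF3 (261 CPM), BTG2 (187 CPM), ANKRD1 (1761 CPM), XIRP1 (2110.0 CPM), DUSP1 (123 CPM) and TRIM63 (101 CPM). T1 library m4 held the lowest of CIART (6.07 CPM) and DKK2 (2.29 CPM), and m7 the lowest of THRB (5.35 CPM). In T2, library m17 held the lowest values of GPAM (1.68 CPM), ACOT11 (0.962 CPM) and NOTCH1 (1.76 CPM), library m15 the highest of SMAD3 (7.31 CPM) and ARNT (21.2 CPM), and m23 the lowest of PHKG1 (46.6 CPM).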

How the results depend on the processing

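Over all alternatives the count of higher genes stayed between 1167 and 1852 (1450 as reported) and that of lower genes between 1387 and 1923 (1738 as reported), each within 1.5 times, and 0 genes were called in the opposite direction in any of them. The largest counts, 1852 and 1923, came without T1 library m3. The share of calls that were higher was 45.5% as reported and 49.8% with the span trend removed. The latter fit held only the 9628 genes with coordinates, so these shares cover different sets of genes. Of the list counts of 8 or more, those of the import, ribosome and dynamics list (22 to 46 higher) and the proteasome list (12 to 34 higher) moved by over 1.5 times when a library was left out, the former without m3 and the latter without m3 or m15. Over the same fits, smaller list counts ranged from 1 to 7 (heat shock, higher), 3 to 6 (heat shock, lower), 2 to 6 (antioxidant, lower; 2 without m17), 2 to 6 (nuclear receptors, higher; 2 without T1 library m2), 2 to 5 (growth signalling, higher), 2 to 5 (extracellular matrix, higher; 5 without m6) and 3 to 7 (import, ribosome and dynamics, lower; 3 without m2 or m17). The mitochondrially encoded share of counts was lower in T2 by -4.42 percentage points without m3 (adjusted p = 0.0599), against -4.94. PPARGC1A was -0.72 (adjusted p = 0.0213) without m14 and m21. BTG2 was 0.0301 (adjusted p = 0.973) with DESeq2, and -3.20 to 0.0105 when a library was left out, the latter without m6 (adjusted p = 0.991). The cause of these shifts was not tested beyond the libraries named. No paired analysis was possible because no replicate number is shared between the time points in the labels. Genes of a few CPM carry most counting error: with counts thinned to 12185608 per library, 1259 genes were higher and 1594 lower.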
